A study of Mus musculus with 8 samples.

Results

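The 10 histone deacetylase genes Hdac1 to Hdac10 were examined in regulatory T cells (Tregs) of mouse peripheral blood, and were taken by symbol from the 56980 genes of the count table. All 10 were among the 21991 genes with enough counts to be tested. The study asked how Tregs differ in high-altitude de-acclimatization (HADA), the state that follows a return from high altitude to normal oxygen. The mice of both groups were C57BL/6j males bought at 8 weeks of age. HADA mice had lived for 28 days at a simulated 6000 m in a hypobaric chamber and were then moved to normoxia. Control mice stayed in normoxia throughout. Tregs were sorted by flow cytometry, and RNA from few cells was amplified as cDNA with a kit for single cells or low input. The study defined Tregs as CD4+CD25+ cells for its suppression assay, and gave no separate gate for the RNA-seq sort. There were 4 HADA and 4 control libraries, and the day of the sort after the return to normoxia was not stated. No transgene, altered allele or drug was named for either group. Whether each library came from a separate animal was not stated either, so the p-values measure the spread between these libraries, which may be technical.

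Histone deacetylases remove acetyl groups from lysines, on histones and on many other proteins, and oppose the lysine acetyltransferases. Class I enzymes (Hdac1, Hdac2, Hdac3 and Hdac8) are mainly nuclear, and all but Hdac8 act as the catalytic subunits of corepressor complexes. Class IIa enzymes (Hdac4, Hdac5, Hdac7 and Hdac9) have little deacetylase activity of their own, bind MEF2 factors and leave the nucleus when kinases phosphorylate them. Class IIb holds Hdac6, a largely cytoplasmic enzyme that deacetylates tubulin and HSP90, and Hdac10, which acts on acetylated polyamines. In Tregs, acetylation of FOXP3 and of histones is part of how the suppressive programme is kept, and deacetylase inhibitors are known to alter Treg function.

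Total counts were between 1477431 and 22584062 in the control libraries and between 22929193 and 28240337 in the HADA libraries, and control replicate 1 was the shallowest. Counts were taken over the whole span of each gene, introns included. They are given below as TMM-scaled CPM, each count divided by the scaled total of its library. The TMM factors were 1.09, 2.24, 1.28 and 0.802 in control replicates 1 to 4. In HADA replicates 1 to 4 they were 0.901, 1.05, 0.673 and 0.628, and a larger factor lowers the CPM of a library. The genes of CD25 and CD4, Il2ra (7.23 to 178 CPM in control, 163 to 748 CPM in HADA) and Cd4 (3.73 to 220 CPM in control, 88.0 to 234 CPM in HADA), were counted in every library. Foxp3 was listed at 0 in all 8 libraries, but 100% of its span is shared with other gene spans, and all 1077 of the 1077 protein-coding genes covered in this way were listed at 0, so its 0 says nothing of its RNA. Of the 8 Treg markers, 2 (Foxp3 and Tnfrsf18) were at 0 throughout, and the sum of the list was 231 to 679 CPM in control and 752 to 2809 CPM in HADA. Markers of other blood cells were present too. The 9 T cell markers summed to 220 to 3684 CPM in control and 3364 to 10241 CPM in HADA, and the 8 markers of CD8 T and NK cells to 9.24 to 105 and 79.7 to 952 CPM. The 7 B cell markers (Ms4a1 at 0) summed to 204 to 5262 and 2050 to 6633 CPM, and the 9 myeloid markers to 82.7 to 1765 and 831 to 3440 CPM. The 6 erythroid markers (Alas2 at 0) summed to 1027 to 28318 and 145 to 2807 CPM, and the 6 platelet markers to 44.0 to 513 and 268 to 1662 CPM. Their part in the results below was not tested, and in bulk RNA fewer cells of a type and less RNA per cell cannot be told apart.

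No deacetylase gene passed the main test, that of edgeR, for a difference between HADA and control Tregs, while Hdac6 passed with DESeq2, the study's test. By edgeR's quasi-likelihood test (thresholds of 0.05 for the Benjamini-Hochberg adjusted p and of 1 for the size of the log2 fold change), 0 of 10 were higher in HADA, against 1.65% of all genes tested, and 0 of 10 were lower, against 0.477%. At an unadjusted p below 0.05 there was 1 of 10 (Hdac6), where 26.7% of all genes passed. DESeq2, which the study used with the same thresholds, called 1 of 10 higher (Hdac6), against 11.2% of all genes, and 0 of 10 lower, against 19.3%. Without control replicate 1, edgeR called 3 of 10 higher (Hdac5, Hdac6 and Hdac10), against 15.5% of all genes, and 0 of 10 lower, against 19.7%. The fitted log2 fold change was above 0 for 7 of 10 members, with a median of 0.96, beside a median of 0.01 and 11045 of 21991 above 0 over all genes tested. By class, the median was 1.29 in class I (4 of 4 above 0), 0.11 in class IIa (2 of 4) and 2.21 in class IIb (1 of 2). Without control replicate 1 it was 1.86 in class I (4 of 4), 0.09 in class IIa (2 of 4), 5.23 in class IIb (2 of 2) and 1.86 over all 10 (8 above 0), beside −0.02 over all genes.

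**Figure D1:**
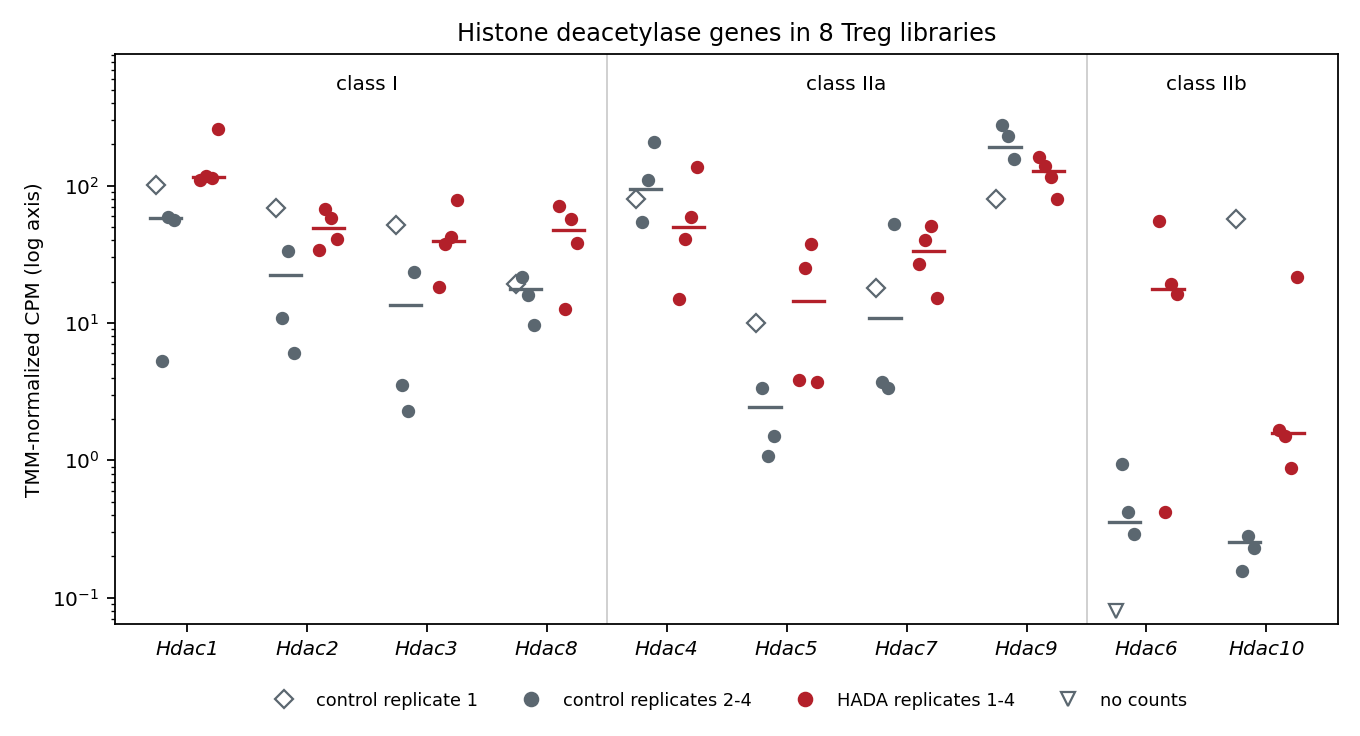
TMM-normalized CPM (log axis) of the 10 deacetylase genes by class, with 1 point per library, an open diamond for control replicate 1, a bar at each group's median and a triangle for no counts. The 4 HADA points of Hdac1 lie above its 4 control points, and for Hdac6 the points of 3 HADA libraries lie at 16.2 CPM or above while HADA replicate 2 lies among the controls.

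All 4 class I genes were fitted higher in HADA, and none passed the test. Hdac1, a catalytic subunit of the SIN3, NuRD and CoREST complexes (ENSMUSG00000028800, chromosome 4, 129409897 to 129436506, minus strand, GRCm39), had 101, 5.29, 59.3 and 56.2 CPM in control replicates 1 to 4. Its values in HADA replicates 1 to 4 were 110.3, 118, 114 and 257 CPM. All 4 HADA libraries thus lay above all 4 control libraries, though the highest control and the lowest HADA library were close together, and control replicate 2 was far below the rest. This separation holds on the scaled values. Before TMM scaling, control replicate 1 (162 of 1477431 counts) lay above HADA replicate 1 (2796 of 28240337 counts) and HADA replicate 3 (1937 of 25230994 counts). Hdac1 was the only member whose groups did not overlap, which makes 1 of 10, against 9.13% of all genes tested with every HADA library above every control and 5.7% with every HADA library below, a share near the background. After receptor-gene background was subtracted, or with all libraries drawn down to the smallest total, its groups overlapped. Its mean was 150.0 ± 71.5 CPM (SD, n = 4) in HADA and 55.3 ± 39.1 CPM (SD, n = 4) in control. The log2 fold change was 1.44 (SE 0.87, 95% interval −0.46 to 3.34, adjusted p = 0.280), and so did not pass.

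Hdac2, which can take the place of Hdac1 in the same complexes (ENSMUSG00000019777, chromosome 10, 36850540 to 36877885, plus strand), ranged from 6.03 to 69.0 CPM in control and from 33.8 to 67.2 CPM in HADA. The HADA values lay inside the control range, and its log2 fold change was 0.75 (SE 0.88, adjusted p = 0.571). Hdac3, the enzyme of the NCoR complex (ENSMUSG00000024454, chromosome 18, 38068897 to 38088069, minus strand), ranged from 2.27 to 51.6 CPM in control and from 18.2 to 78.8 CPM in HADA. Its log2 fold change was 1.14 (SE 1.04, adjusted p = 0.461), with 1 of 4 HADA libraries above the highest control. In all 3 of these genes control replicate 1 held the highest control value. That library had the smallest total, so that its CPM rested on 162 counts for Hdac1, 111 for Hdac2 and 83 for Hdac3.

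Hdac8, a class I enzyme that deacetylates the cohesin subunit SMC3 (ENSMUSG00000067567, chromosome X, 101328245 to 101548965, minus strand), had 19.3, 21.5, 15.9 and 9.74 CPM in the control libraries. In HADA replicates 1 to 4 it had 70.7, 12.6, 57.2 and 38.2 CPM. The controls were close to each other, 3 HADA libraries lay above all of them, and HADA replicate 2 lay among them. The log2 fold change was 1.43 (SE 0.80, 95% interval −0.32 to 3.18, adjusted p = 0.251). Of its span, 36.6% is shared with another gene, and the values come from the remainder. The exonic part of the span is 3.87%. Per kb, Hdac8 stood at 2.78, 0.456, 0.394 and 0.345 of the receptor-gene density described below in control replicates 1 to 4. In HADA replicates 1 to 4 it stood at 2.40, 0.488, 2.40 and 2.27 of that density. The part of counts from outside spliced RNA in its values was not tested.

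Summed over class I, CPM was 240.5, 41.2, 111 and 95.5 in control replicates 1 to 4 and 233, 236, 272 and 415 in HADA replicates 1 to 4. Control replicate 1 lay within the HADA range and the other 3 controls below it. Control replicate 2, with the lowest sum, also had the largest TMM factor (2.24), which lowers all of its CPM. It was the lowest control in all 7 marker lists, and had the highest receptor-gene density described below (0.337 CPM per kb). The part of these in its class I level was not tested. Without control replicate 1 the log2 fold changes were 2.01 for Hdac1, 1.71 for Hdac2, 2.29 for Hdac3 and 1.66 for Hdac8, none of them past the threshold (adjusted p between 0.0998 and 0.110, and between 0.0998 and 0.980 over all alternatives tried).

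The class IIa genes did not move together. Hdac4 and Hdac9 were fitted lower in HADA and Hdac5 and Hdac7 higher, and none passed the test. Hdac5, a MEF2 repressor whose nuclear export is controlled by signalling (ENSMUSG00000008855, chromosome 11, 102085258 to 102120992, minus strand), had 9.94, 3.35, 1.08 and 1.51 CPM in the control libraries and 3.83, 25.0, 37.6 and 3.73 CPM in the HADA libraries. HADA replicates 2 and 3 were well above the controls, whereas HADA replicates 1 and 4 lay inside the control range because of control replicate 1, whose value was made of 16 counts. The log2 fold change was 2.22 (SE 1.06, 95% interval −0.09 to 4.52, adjusted p = 0.197). Without control replicate 1 it was 3.30 (SE 1.04, adjusted p = 0.0421) and passed. Over all alternatives its adjusted p was between 0.0421 and 0.579.

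Hdac7, the class IIa enzyme best known from thymocytes (ENSMUSG00000022475, chromosome 15, 97690545 to 97742383, minus strand), ranged from 3.39 to 52.2 CPM in control and from 15.2 to 50.9 CPM in HADA. The HADA values lay inside the control range, and its log2 fold change was 0.78 (SE 0.99, adjusted p = 0.596). Hdac4, a MEF2 repressor like Hdac5 (ENSMUSG00000026313, chromosome 1, 91856501 to 92123421, minus strand), ranged from 54.7 to 207 CPM in control and from 15.0 to 136 CPM in HADA. Its log2 fold change was −0.85 (SE 0.84, adjusted p = 0.497), and 2 HADA libraries lay below every control.

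Hdac9, a class IIa enzyme whose loss is known to raise Treg numbers and suppressive function in mice (ENSMUSG00000004698, chromosome 12, 34097579 to 34967094, minus strand), had 80.2, 274, 229 and 155 CPM in the control libraries. In HADA replicates 1 to 4 it had 162, 140, 116 and 79.2 CPM. The groups overlapped, with control replicate 1 about as low as the lowest HADA library and control replicate 4 just below HADA replicate 1. Its log2 fold change was −0.57 (SE 0.69, 95% interval −2.06 to 0.92, adjusted p = 0.578). Its span is 869516 bases, of which 1.80% is exonic, and per kb of span it had the lowest median of the 10 genes in HADA. Summed over class IIa, CPM was 188, 336, 342 and 416 in control and 208, 246, 263 and 234 in HADA, so that the HADA values lay above control replicate 1 and below the other 3 controls. Hdac9 alone gave 274 of the 336 CPM in control replicate 2. The receptor-gene density described below, taken over the Hdac9 span, would give 106% to 112% of its count in control replicates 2 to 4. In HADA it would give 112% to 131%, and in control replicate 1 53.3%. The part of such counts in the class IIa sum was not tested.

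**Figure D2:**
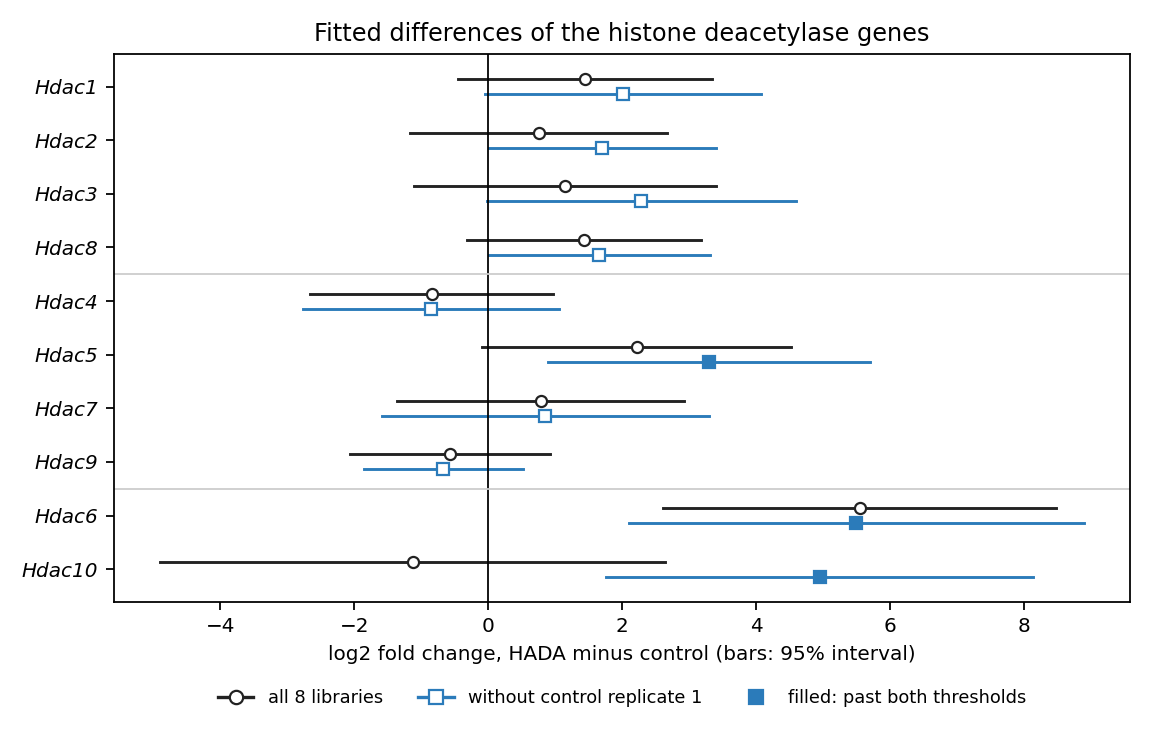
Fitted log2 fold change (HADA minus control, horizontal axis) of each deacetylase gene with its 95% interval, from all 8 libraries (circles) and without control replicate 1 (squares), filled where past the adjusted p and fold thresholds. With all 8 libraries no symbol is filled, and without control replicate 1 those of Hdac5, Hdac6 and Hdac10 are.

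In class IIb, Hdac6 had the largest fitted difference of the 10 genes and missed the threshold of the main test. Hdac6 (ENSMUSG00000031161, chromosome X, 7796359 to 7814128, minus strand) was counted 0, 30, 12 and 5 times in control replicates 1 to 4, and 1394, 10, 323 and 269 times in HADA replicates 1 to 4. In CPM this was 0, 0.939, 0.419 and 0.290 in control against 55.0, 0.419, 19.1 and 16.2 in HADA. HADA replicates 1, 3 and 4 stood far above every control, and HADA replicate 2 stood among the controls. The 0 of control replicate 1 allows up to 3 counts, or 1.86 CPM, a limit that covers counting error only. The mean was 22.7 ± 23.1 CPM (SD, n = 4) in HADA and 0.412 ± 0.393 CPM (SD, n = 4) in control. The log2 fold change was 5.55 (SE 1.35, 95% interval 2.62 to 8.48), with an unadjusted p of 0.00139 and an adjusted p of 0.0552 in edgeR's quasi-likelihood test.

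Whether Hdac6 passed depended on the setting. It passed with DESeq2 (log2 fold change 5.33, adjusted p = 5.02e-05), without a filter on low counts (5.95, 0.0453), without control replicate 1 (5.50, 0.0265) and without HADA replicate 2 (6.11, 0.0338). In the other 10 alternatives in which it could be fitted it did not, and its adjusted p reached 0.172. The study names Hdac6 among the predicted targets of Nrf2, the regulator of the antioxidant response. Since the study tied those targets to features it found upregulated with these same libraries, its direction here is not taken as independent evidence. Nfe2l2, the gene of Nrf2, had 4.92 to 130 CPM in control and 145 to 334 CPM in HADA, with a log2 fold change of 1.53 (SE 0.90, adjusted p = 0.268).

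For Hdac10, 1 control library set the sign of the fitted difference. Hdac10 (ENSMUSG00000062906, chromosome 15, 89007510 to 89012903, minus strand) was counted 92, 5, 8 and 4 times in control and 42, 36, 15 and 359 times in HADA. In CPM this was 57.2, 0.157, 0.279 and 0.232 in control and 1.66, 1.51, 0.886 and 21.6 in HADA. Every HADA library lay above control replicates 2 to 4 and below control replicate 1. The log2 fold change was −1.13 (SE 1.74, 95% interval −4.91 to 2.64, adjusted p = 0.669) with all libraries, and 4.95 (SE 1.39, adjusted p = 0.0296) without control replicate 1, the adjusted p reaching 0.959 over all alternatives. Against control replicates 2 to 4 alone, the groups of 4 members did not overlap (Hdac1, Hdac2, Hdac5 and Hdac10, all higher in HADA), where 18.4% of all genes had every HADA library above these controls. For 2 of them the gap was narrow. Hdac2 had 33.8 CPM in HADA replicate 1 and 33.6 CPM in control replicate 3. Hdac5 had 3.73 CPM in HADA replicate 4 and 3.35 CPM in control replicate 2. Summed over class IIb, CPM was 57.2, 1.10, 0.699 and 0.522 in control and 56.6, 1.93, 20.0 and 37.8 in HADA.

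The genes whose profile over the 8 libraries was closest to that of Hdac6 were Fads1, Mrm3 and the long noncoding RNA 3300005D01Rik. Fads1 encodes a fatty acid desaturase and Mrm3 a methyltransferase of mitochondrial ribosomal RNA. Closeness was the root mean square difference of log2 CPM after each gene was centred on its mean, and it was 0.814 for Fads1, 0.818 for Mrm3 and 0.879 for 3300005D01Rik among 21990 genes compared. All 3 had 0 CPM in control replicate 1 and at most 1.85 CPM in the other controls, and in HADA replicate 2 they had 2.89, 0.586 and 0.461 CPM. Of the other deacetylases Hdac8 was nearest (2.26, with 868 genes nearer) and Hdac10 farthest (4.10, with 20912 nearer). These profiles share their libraries and depths.

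The promoters of Hdac6 and Hdac8 are shown because Hdac6 is the gene linked to Nrf2 and Hdac8 is the member whose upstream bases held the core letters of the antioxidant response element, to which Nrf2 binds. They are the 250 bases before the RefSeq start (table build GRCm38.p6), read 5′ to 3′, and were placed on GRCm39 by exact match at chrX:7814129-7814378 and chrX:101548765-101549014, both on the minus strand. The RefSeq start of Hdac8 lies 201 bases inside the counted span of that gene, so most of its window overlaps the span. The Hdac8 match lies across the edge of the span. The RefSeq start of Hdac6 is 0 bases from the start of its span. Capitals mark the match.
Hdac6: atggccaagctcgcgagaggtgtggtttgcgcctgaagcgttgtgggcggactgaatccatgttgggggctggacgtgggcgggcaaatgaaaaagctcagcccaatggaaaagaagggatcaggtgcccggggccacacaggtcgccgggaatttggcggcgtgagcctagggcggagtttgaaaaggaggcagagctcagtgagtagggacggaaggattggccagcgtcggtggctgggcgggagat
Hdac8: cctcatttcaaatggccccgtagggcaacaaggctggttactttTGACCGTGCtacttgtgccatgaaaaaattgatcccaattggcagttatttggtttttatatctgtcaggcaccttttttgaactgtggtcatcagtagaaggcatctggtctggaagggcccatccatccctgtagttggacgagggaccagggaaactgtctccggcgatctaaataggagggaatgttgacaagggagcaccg
The letters searched were TGACNNNGC on both strands. They were in 1 of the 11 promoters listed for 7 members, that of Hdac8, starting 206 bases before the start, and in 10.2% of all 32851 promoters (3338). The Hdac6 window held no match, which says only that these letters are not in these bases. GC content was 61.2% for Hdac6 and 48.4% for Hdac8, beside a median of 52.4% over all promoters. Hdac1, Hdac3 and Hdac10 had no entry.

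Per kb of span that no other gene shares, the only scale on which genes were compared with each other, Hdac1 had the highest median density of counts in both groups. The exonic part of the span ran from 1.80% (Hdac9) to 76.8% (Hdac10), with 17.6% for Hdac1. A long intron lowers this density, so the order is not one of RNA amount. In control libraries the order of the medians was Hdac1 (2.17 CPM per kb), Hdac2 (0.814), Hdac3 (0.706), Hdac4 (0.366), Hdac9 (0.222), Hdac7 (0.210), Hdac8 (0.126), Hdac5 (0.0682), Hdac10 (0.0474) and Hdac6 (0.0199). The ranges of all neighbours in this order overlapped. In HADA libraries the order was Hdac1 (4.37 CPM per kb), Hdac3 (2.08), Hdac2 (1.81), Hdac6 (0.992), Hdac7 (0.648), Hdac5 (0.404), Hdac8 (0.341), Hdac10 (0.293), Hdac4 (0.193) and Hdac9 (0.148). There the lowest Hdac1 value (4.14) was just above the highest Hdac3 value (4.11), and the ranges of all later neighbours overlapped. On this scale Hdac1, Hdac2 and Hdac3, the class I enzymes of the corepressor complexes, held the first 3 places in both groups. Hdac6 stood last in control and just after them in HADA.

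Since whole spans were counted, each density was set against that of 1394 olfactory and vomeronasal receptor genes, whose known role is in smell and which no other gene overlaps. That density was 0.0495, 0.337, 0.288 and 0.202 CPM per kb in control replicates 1 to 4 and 0.211, 0.185, 0.171 and 0.120 CPM per kb in the HADA libraries. Hdac2 was the only member above it in all 4 control libraries, and Hdac1, Hdac2, Hdac3 and Hdac7 were above it in all 4 HADA libraries. Hdac9 lay close to it in 7 of 8 libraries, with a ratio of 0.893 to 0.943 in control replicates 2 to 4 and 0.763 to 0.892 in HADA, beside 1.88 in control replicate 1. Hdac6 was at 0 to 0.157 of it in control, and at 0.127 in HADA replicate 2 but at 14.7, 6.29 and 7.56 in HADA replicates 1, 3 and 4. Hdac1 was at 0.590 in control replicate 2 and at 7.73 to 76.4 in the other controls, and at 19.7 to 80.2 in HADA.

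**Figure D3:**
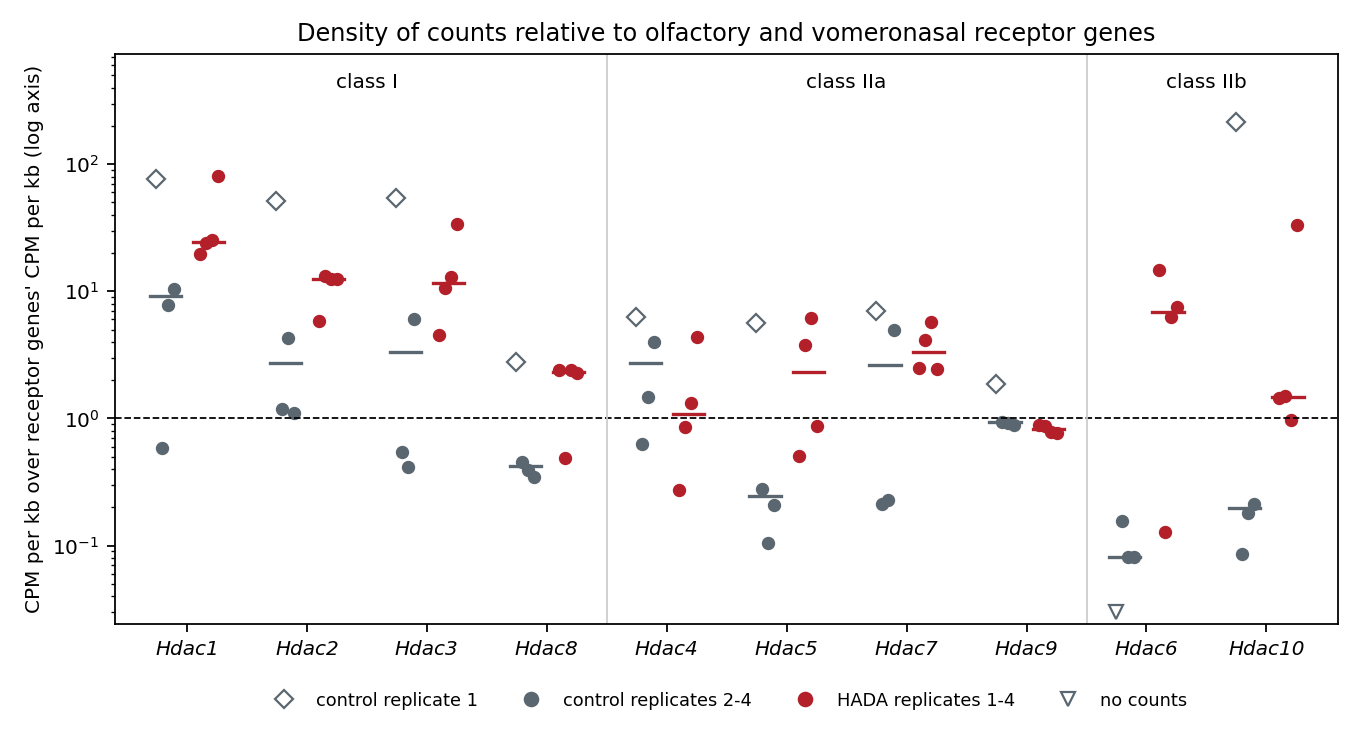
CPM per kb of each deacetylase gene over that of receptor genes in the same library (log axis), with the dashed line at equal density and symbols as in the plot of CPM. The points of Hdac9 lie at 0.763 to 0.943 in 7 libraries, and 3 HADA points of Hdac6 lie at 6.29 to 14.7.

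The receptor density of the HADA libraries rested on few receptor genes. Without the 5% of receptor genes with the highest density (1324 remaining), it was 0.0542 to 0.0810 CPM per kb in HADA and 0.0425 to 0.331 in control. On that measure 8 members lay above it in every HADA library, Hdac4 and Hdac6 being the exceptions, and Hdac9 was at 1.69 to 2.37 in HADA. In control it was still Hdac2 alone. The receptor genes left out were picked by their mean density over all 8 libraries. Leaving them out lowered the density more in HADA than in control replicates 2 to 4. The higher count of members in HADA is therefore not independent of how these genes were picked.

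The other genes of lysine acetylation were read from lists with the same test, which called 1.65% of all genes higher and 0.477% lower. Of the 8 other deacetylases tested (Hdac11 and the sirtuins), 0 rose and 0 fell, with a median log2 fold change of 0.27 and 5 above 0. The smallest p among them was that of Sirt3, a mitochondrial deacetylase (log2 fold change 4.13, SE 1.21, adjusted p = 0.0879). Sirt3 had 0.753 to 5.59 CPM in control and 14.4, 7.79, 13.8 and 140 CPM in HADA replicates 1 to 4, so HADA replicate 4 stood far above the rest. Hdac11, the class IV enzyme, was at −0.13 (SE 0.71, adjusted p = 0.913) and is named here after its values were seen. Of 34 class I corepressor partners tested, 0 rose and 0 fell (median 0.69, 25 above 0). Of 12 lysine acetyltransferases tested, 0 rose and 0 fell (median 0.60, 9 above 0), and the smallest p was that of the coactivator Ncoa3 (−1.74, SE 0.74, adjusted p = 0.166).

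Of 19 class IIa partners and regulators, 0 rose and 0 fell, with a median log2 fold change of 1.22 and 17 above 0. Camk4, a calcium-dependent kinase that phosphorylates class IIa enzymes, had the smallest p, with 39.2 to 67.2 CPM in control and 101 to 495 CPM in HADA (2.22, SE 0.74, adjusted p = 0.113). Of 16 Hdac6 substrates and partners tested, 0 rose and 1 fell (median 0.69, 11 above 0). The gene that fell was Tubb5, a beta tubulin, with 923, 6749, 11911 and 19028 CPM in control and 419, 398, 553 and 645 CPM in HADA. Every HADA library was below every control, and control replicate 1 was the lowest control by far. Its log2 fold change was −4.26 (SE 0.86, adjusted p = 0.0305), and tubulin genes have near-identical copies between which the counting could split reads. At an unadjusted p below 0.05 these 5 lists had 3, 2, 1, 2 and 4 genes in the order given, where 26.7% of all genes passed. DESeq2 called 1, 2, 0, 2 and 2 higher and 2, 0, 1, 0 and 2 lower, and edgeR without control replicate 1 called 3, 9, 4, 7 and 4 higher and 1, 0, 1, 0 and 2 lower. Over all genes DESeq2 called 11.2% higher and 19.3% lower, and edgeR without control replicate 1 called 15.5% higher and 19.7% lower.

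**Figure D4:**
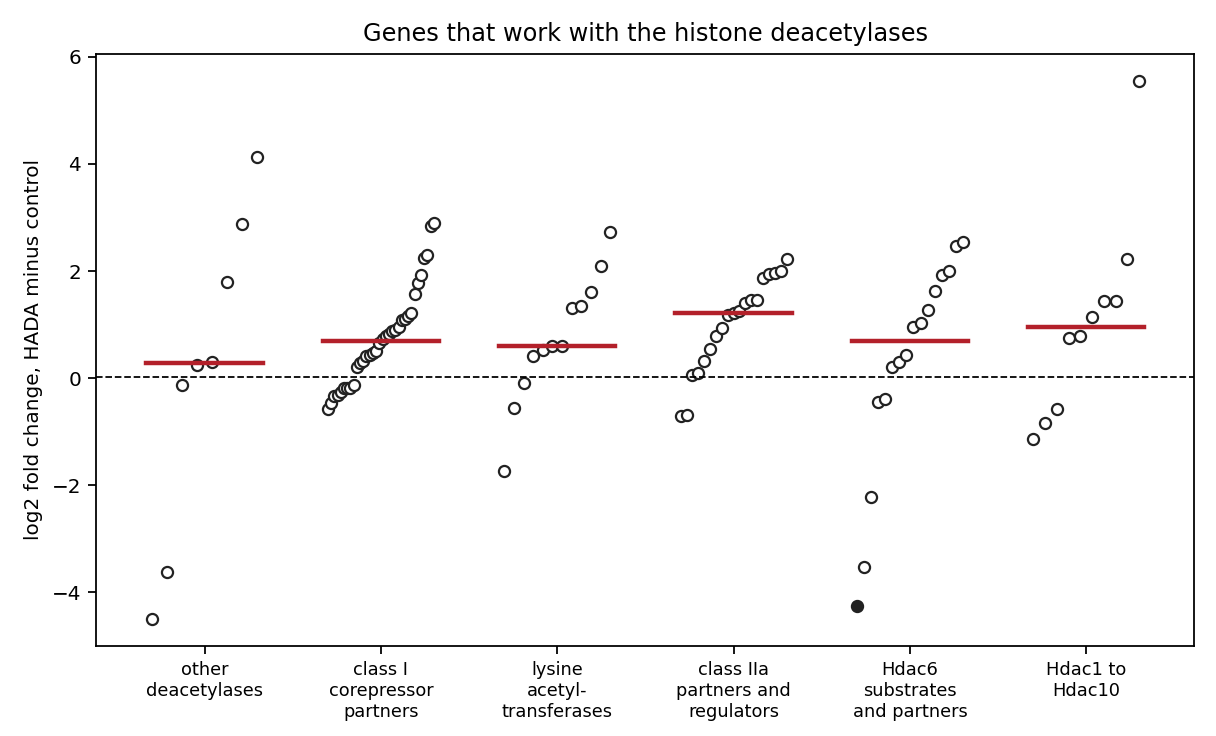
Log2 fold change (HADA minus control) of the tested genes of 5 lists and of the 10 deacetylases, 1 circle per gene, a bar at each list's median and a filled circle where a gene passed both thresholds. Tubb5 is the only filled circle, at −4.26, and the medians of the 6 columns run from 0.27 to 1.22.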

How the data were processed

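RNA-seq was analysed from 4 HADA and 4 control libraries of peripheral blood Tregs, grouped and numbered by their labels. Per the labels and methods, the authors used FastQC for read quality, Trimmomatic for trimming, STAR for alignment to GRCm39 and featureCounts for counts per gene. The deposited values are raw counts, and the strand and multi-mapping settings are not given in the sources used here. The length column equals the whole span of the gene for 100% of genes. Of 56980 identifiers, 56236 were named from GENCODE vM39, and coordinates are those deposited. No pair of libraries had identical counts (0 of 28). Total counts per library ran from 1477431 to 28240337, and cDNA copies of a molecule are not told apart, so limits from counts cover counting error only.

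The main test was edgeR 4.0.16 in R 4.3.3 (TMM, filterByExpr, quasi-likelihood test, no covariate) on 21991 genes, with thresholds of 0.05 for the Benjamini-Hochberg adjusted p and of 1 for the size of the log2 fold change. log2 CPM used a prior count of 2. The script was tested on simulated data. The alternatives were DESeq2 1.42.0 and its size factors, the unfiltered table, genes with 10 or more counts in each library, limma 3.58.1 on log2(CPM + 1) and log2(CPM + 0.1), libraries drawn down to 1477431 counts (seed 1), receptor-gene background subtracted, no fold threshold, an unadjusted p, a block for the replicate number, and leaving out each library. The overlap count without control replicate 1 was added after seeing the data. Libraries with the same number were not stated to belong together and were treated as unpaired. Other values were computed in Python 3.11.15 (pandas 2.3.3, numpy 2.4.6). Promoters came from a RefSeq table.

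The members and gene lists were chosen with earlier results of these data known. Named were all members, Il2ra, Cd4, Foxp3, Nfe2l2, the genes of each list past the thresholds (at most 3) or otherwise the 1 with the smallest p, and the 3 genes nearest to Hdac6. For the class I corepressor partners, the gene so chosen is not reported here. The marker lists were Treg, T cell, CD8 T and NK, B cell, myeloid, erythroid and platelet.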

Additional observations from a re-analysis of the deposited data

Results flagged for a closer look

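Among the 20 groups of 4 libraries (10 genes in HADA and in control), 2 held a library far from the other 3, where chance gives about 1. Hdac1 had a log2 CPM of 8.01 in HADA replicate 4, and the other 3 HADA libraries had 6.79 to 6.89. Hdac10 had a log2 CPM of 5.84 in control replicate 1, from 92 counts in the shallowest library, and the other 3 controls had −1.97 to −1.40.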

How the results depend on the processing

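The count of members called higher was 0 of 10 in the main test (1.65% of all genes). It was 1 with DESeq2 (11.2% of all genes), 1 without the filter on low counts (408 of 41823 genes) and 1 at an unadjusted p. Over all genes, 26.7% had an unadjusted p below 0.05 in edgeR's test, in either direction. When each library was left out in turn, the count ran from 0 to 3. It was 3 without control replicate 1 (15.5% of all genes), 1 without HADA replicate 2 (211 of 23784 genes) and otherwise 0. With the replicate block it was 0. Same-numbered libraries deviated together with correlations of −0.21, 0.25, −0.08 and −0.00, and only replicate 2 correlated best with its own number. With 4 libraries per group that differ much from each other, these correlations cannot decide whether the numbers pair the libraries. No member was called lower under any alternative tried, whereas over all genes 19.3% were called lower with DESeq2 and 19.7% without control replicate 1. The log2 fold change of Hdac10, −1.13, reversed to 0.36 with limma on log2(CPM + 1), 1.26 on log2(CPM + 0.1) and 2.24 with the replicate block, and ran from −3.33 to 4.95 when each library was left out. No other member changed direction under any alternative in which it could be fitted. Hdac6 and Hdac10 could not be fitted at 10 counts in every library or with libraries drawn down to 1477431 counts, nor Hdac5, Hdac6 and Hdac9 after background subtraction. Members whose groups did not overlap, 1 in the main test (Hdac1), were 0 of 7 after background subtraction, 4 without control replicate 1 and 1 with libraries drawn down, where it was Hdac4 and not Hdac1. The shares over all genes after background subtraction and with libraries drawn down are not given here, so these counts have no background beside them. Members above the receptor density in every HADA library went from 4 to 8 without the densest 5% of receptor genes. The cause of these moves was not tested. Over all genes tested, the median log2 change of 0.01 became −0.19 with DESeq2 size factors and 0.31 with limma on log2(CPM + 0.1), and over other sets of genes it was −0.37 without the filter (41823 genes) and 1.003 after background subtraction (9192 genes). At the depth of control replicate 1, 1477431 counts, a count of 0 such as that of Hdac6 allows up to 1.86 CPM.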

Other observations

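Sirtuins, the NAD-dependent deacetylases, were fitted in both directions. Sirt4, a mitochondrial sirtuin, had a log2 fold change of −4.50 (SE 1.37) and Sirt6, a nuclear one, of −3.62 (SE 1.23), while Sirt2, which like Hdac6 deacetylates tubulin, had 2.87 (SE 1.41). None passed edgeR's test (adjusted p = 0.0961, 0.117 and 0.206), and the 3 were chosen after their values were seen. Among the corepressor partners, Mta3 of the NuRD complex had 2.90 (SE 0.88, adjusted p = 0.0958), also chosen after its value was seen.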
